A study of Neurospora crassa with 24 samples.

Results

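The mRNAs of the phosphate uptake regulator gene *nuc-1* and of *pho-2*, *pho-3*, *pho-4* and *pho-5* were followed in 8 conditions of *Neurospora crassa* before fertilization. These 5 genes of the 10561 counted were picked by name with their counts in all 8 conditions already known, so that the values that chose them are given here as a description and without a test. All 5 passed the filter on low counts, as did 9412 genes in all.

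Filamentous fungi take up free phosphate through membrane permeases and release it from organic compounds with secreted phosphatases. In *N. crassa* both activities are repressed when phosphate is plentiful. NUC-1 is a basic helix-loop-helix transcription factor that activates the genes for phosphorus acquisition when phosphate is scarce. The cyclin PREG and its partner kinase PGOV hold NUC-1 inactive in ample phosphate, and the ankyrin repeat protein NUC-2 relieves that inhibition when phosphate runs low. *pho-2* encodes a repressible alkaline phosphatase and *pho-3* a repressible acid phosphatase. *pho-4* encodes a high-affinity phosphate permease driven by sodium, and *pho-5* a high-affinity permease of the proton-coupled type.

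The 8 conditions were 4 strains, each kept in light or in the dark on nitrogen-poor crossing medium and collected 1 day before fertilization, with 3 libraries per condition and 24 in all. Both the wild type and ∆*ve-1*, from which the gene of the velvet regulator VE-1 was deleted, were *mat A*. The other strains were ∆*wc-1*, deleted for the gene of the photoreceptor and transcription factor WC-1, and a strain with both deletions, ∆*ve-1* ∆*wc-1*. Tissue of biological replicates was combined before RNA extraction, so that p-values measure the spread between these libraries, which may be partly technical. In bulk tissue, fewer cells of a type and less RNA per cell cannot be told apart.

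Total counts were 30246878 to 42697941 per library. *ve-1* was at 1.60 to 8.39 CPM (the count of a gene scaled to the size of its library) in the 12 libraries of strains labelled as lacking it and at 61.3 to 291 CPM in the others. *wc-1*, by contrast, was at 17.3 to 27.8 CPM in the wild type in the dark and higher, at 54.8 to 69.2 CPM, in the dark cultures of ∆*wc-1*. That goes against the label, and the reason was not tested. Both strains are therefore called by the label, as ∆*wc-1*-labelled and ∆*ve-1* ∆*wc-1*-labelled libraries. The library with the lowest Spearman correlation to another of its own condition, 0.793, was lit ∆*wc-1*-labelled library 1 (numbers as in the labels), called the library that stood apart. Its 10 most abundant genes held 26.7% of the counts against 7.31% and 6.91% in libraries 2 and 3. Both ∆*ve-1* ∆*wc-1*-labelled libraries 2 had the same contrast, with 23.9% against 7.50% and 7.38% in the dark and 21.3% against 9.13% and 7.43% in light. Lit ∆*ve-1* library 1 differed in the other direction, with 8.62% against 15.2% and 19.4% in libraries 2 and 3. Dark library 1 and lit library 3 of the ∆*ve-1* ∆*wc-1*-labelled strain had the highest Spearman correlation of any pair of libraries, 0.992. The 5 conidiation markers (asexual spore formation; *con-6*, *con-8*, *con-10*, *con-13* and *eas*) were above 0 in every condition, and their summed level was 1007 to 3401 CPM in the wild type in the dark, 84638 to 138775 in the wild type in light, 17815 to 36089 and 38357 to 80853 in ∆*ve-1* in the dark and in light, 1378 to 4393 and 648 to 3775 in the ∆*wc-1*-labelled libraries, and 9232 to 19342 and 8564 to 18719 in the double mutant ones. The 5 sexual tissue markers (*pre-1*, *ccg-4*, *mat A-1*, *poi-2* and *asd-1*) summed to 373 to 34735 CPM, and none was at 0 in all libraries of a condition.

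The 5 genes lie on 4 chromosomes of assembly NC12. *nuc-1* (NCU09315) is at chromosome I, 4278717 to 4281906, *pho-2* (NCU01376) at chromosome V, 3812751 to 3815365, and *pho-4* (NCU09564) at chromosome VII, 989341 to 993463. *pho-5* (NCU08325) at 2396703 to 2398930 and *pho-3* (NCU08643) at 4248244 to 4250307 are both on chromosome IV and are not neighbours. Per kilobase of gene span, the mean level over all libraries was 10.8 CPM for *nuc-1*, 10.7 for *pho-2*, 7.80 for *pho-3*, 5.83 for *pho-5* and 1.65 for *pho-4*, so that *pho-4* had the lowest level for its length. The order was not the same in each condition: in the ∆*wc-1*-labelled libraries in light, *pho-3* reached 50.3 CPM per kilobase and was above the other 4 genes, and in ∆*ve-1* in the dark it was at 0.268 and below them.

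**Figure D1:**
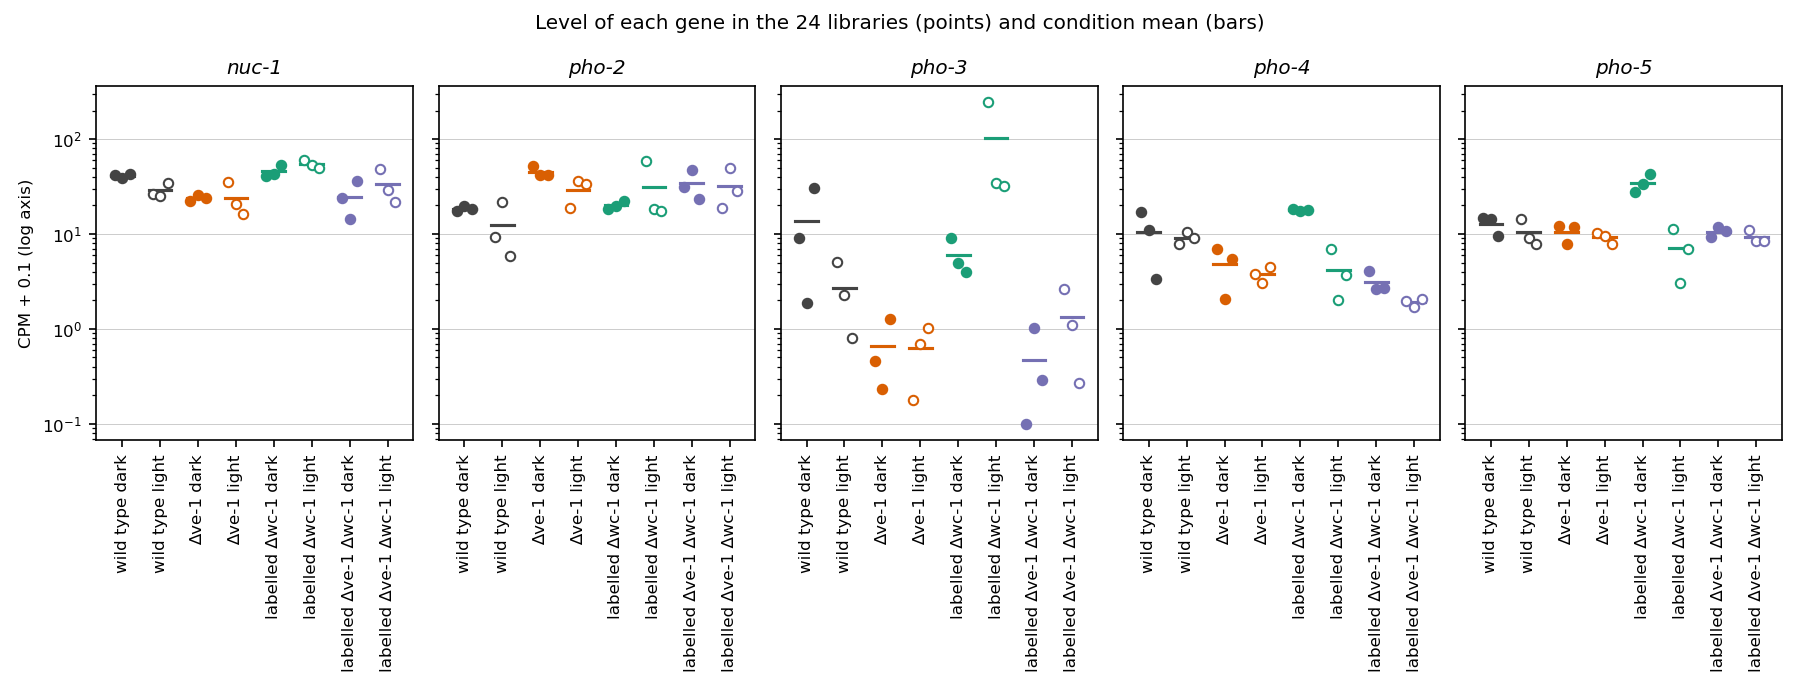
Levels of *nuc-1*, *pho-2*, *pho-3*, *pho-4* and *pho-5* in CPM, with 0.1 added for the log axis, in the 8 conditions (filled points dark, open points light, bars condition means, 3 libraries each). *pho-3* ran from 0 to 245 CPM and *nuc-1* only from 14.4 to 60.7 CPM.

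The regulator gene *nuc-1* had the narrowest range of the 5. In the wild type it was at 41.4, 38.8 and 42.3 CPM in the dark and at 26.3, 25.3 and 34.5 CPM in light. Every lit wild-type library was below every dark one, with a log2 fold change of -0.51 ± 0.34 (SE, 3 libraries against 3). Here and below, the SE of a log2 fold change came from the fit to all 24 libraries, whose spread the 8 conditions share. It does not measure the spread of the compared libraries alone. In ∆*ve-1* the dark libraries were at 22.0, 25.7 and 23.8 CPM and the lit ones at 35.4, 20.5 and 16.1 CPM. The dark ∆*ve-1* libraries were all below the dark wild type (log2 fold change -0.78 ± 0.34), and the lit ones spread to either side of them. For light in ∆*ve-1* the log2 fold change was 0.01 ± 0.34, and -0.38 without lit library 1. In the ∆*wc-1*-labelled libraries, *nuc-1* was at 40.3, 42.8 and 53.8 CPM in the dark and at 60.7, 53.7 and 48.9 CPM in light. Those lit libraries were above all 3 lit wild-type libraries (log2 fold change 0.92 ± 0.34, and 0.84 without the library that stood apart). In the ∆*ve-1* ∆*wc-1*-labelled libraries it was at 23.9, 14.4 and 35.8 CPM in the dark and at 48.7, 29.0 and 21.8 CPM in light, which overlapped.

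The mean of *nuc-1* was highest in the lit ∆*wc-1*-labelled libraries (54.5 ± 5.94 CPM, SD, n = 3), followed by the dark ones (45.7 ± 7.18) and the wild type in the dark (40.8 ± 1.82). It was lowest in the dark ∆*ve-1* libraries, at 23.8 ± 1.87 CPM. Of neighbours in that order, only the first pair had a gap, 8.79 CPM, above the larger SD of the pair, and even there the libraries overlapped. The share of the 10 most abundant genes in the counts moved with these conditions, from 6.41% in a dark wild-type library to 27.1% in a lit one. The part of this share in the *nuc-1* levels was not tested beyond a fit with it as a covariate. In that fit the light difference of *nuc-1* in the wild type was -0.14 on the log2 scale. In the wild type the share was 6.41, 6.71 and 9.31% in the dark and 27.1, 18.7 and 26.5% in light. In dark ∆*ve-1* it was 21.4, 16.3 and 18.7%. In these comparisons the share and the condition did not overlap, so the covariate fit cannot tell them apart.

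The alkaline phosphatase gene *pho-2* showed another order. It was at 17.4, 19.5 and 18.4 CPM in the wild type in the dark and at 52.4, 41.6 and 42.2 CPM in ∆*ve-1* in the dark. All 3 dark ∆*ve-1* libraries were above the wild type, with a log2 fold change of 1.30 ± 0.49, or 0.47 with the share of the 10 most abundant genes as a covariate. In light, the wild type was at 9.26, 21.7 and 5.75 CPM and ∆*ve-1* at 18.6, 36.0 and 33.4 CPM. The lit wild-type libraries overlapped both their dark counterparts and the lit ∆*ve-1* libraries, through library 2 at 21.7 CPM. Without it the log2 fold change for light in the wild type was -1.30, against -0.59 ± 0.49 with it (and -1.53 with the covariate). That of lit ∆*ve-1* against the lit wild type was 1.97 without it, against 1.26 ± 0.49. Within ∆*ve-1*, every lit library was below every dark one (-0.63 ± 0.49). In the ∆*wc-1*-labelled libraries, *pho-2* was at 18.1, 19.7 and 22.3 CPM in the dark and at 58.5, 18.0 and 17.3 CPM in light. The value of 58.5 CPM is from the library that stood apart. Without it the log2 fold change for light in that strain was -0.18, against 0.64 ± 0.49 with it, and against the wild type in light 0.53 in place of 1.35 ± 0.49. In the ∆*ve-1* ∆*wc-1*-labelled libraries it was at 31.3, 47.5 and 23.5 CPM in the dark and at 18.5, 49.2 and 28.5 CPM in light. Those in the dark were all above the dark wild type (log2 fold change 0.89 ± 0.49, and 0.57 without library 2), and those in light overlapped the lit wild type (1.39 ± 0.49, and 0.94 without library 2).

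Condition means of *pho-2* ran from 12.2 ± 8.40 CPM in the wild type in light to 45.4 ± 6.06 CPM in ∆*ve-1* in the dark (SD, n = 3). No neighbours in that order were further apart than the larger SD of the pair.

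The acid phosphatase gene *pho-3* had the widest range. In the wild type it was at 9.03, 1.80 and 30.3 CPM in the dark and at 4.99, 2.20 and 0.70 CPM in light. The dark libraries of the wild type spread widely and overlapped the lit ones, with a log2 fold change for light of -2.38 ± 1.20. It was -1.07 without dark library 3 and -4.87 with the share of the 10 most abundant genes as a covariate. In ∆*ve-1* it was at 0.360, 0.132 and 1.17 CPM in the dark and at 0.0773, 0.593 and 0.933 CPM in light. All 6 ∆*ve-1* libraries were under every dark wild-type library. In the ∆*ve-1* ∆*wc-1*-labelled libraries it was at 0, 0.915 and 0.188 CPM in the dark and at 2.53, 1.00 and 0.167 CPM in light. A count of 0 in the first of these libraries allows a level of up to 0.0639 CPM (3 counts). In the ∆*wc-1*-labelled libraries it was at 9.04, 4.79 and 3.92 CPM in the dark and at 245, 34.2 and 32.0 CPM in light. Each lit library labelled ∆*wc-1* was above every other library of the series, the nearest being a dark wild-type library at 30.3 CPM. The value of 245 CPM is from the library that stood apart.

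The log2 fold change of *pho-3* for light in the ∆*wc-1*-labelled libraries was 4.13 ± 1.28, and 2.48 without that library. Against the wild type in light it was 5.31 ± 1.36, and 3.66 without it. Against the wild type in the dark, *pho-3* was lower by a log2 fold change of -4.63 ± 1.36 in ∆*ve-1* and of -5.43 ± 1.43 in the ∆*ve-1* ∆*wc-1*-labelled libraries, without overlap in either. The first value was -3.35 without wild-type library 3, -5.83 without ∆*ve-1* library 3 and -6.57 with the covariate, and the second -7.10 without dark double mutant library 2 and -4.11 without wild-type library 3. For the dark ∆*wc-1*-labelled libraries the value was -1.21 ± 1.15, and 0.14 without dark wild-type library 3, at 30.3 CPM. Of the condition means, the highest was 104 ± 122 CPM and the lowest 0.368 ± 0.483 CPM (SD, n = 3). The libraries of the first and second conditions in that order did not overlap, although their gap of 90.1 CPM was smaller than the SD of the first.

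The sodium-driven permease gene *pho-4* was highest in the dark ∆*wc-1*-labelled libraries, at 18.4, 17.2 and 17.8 CPM, and low in the lit ones, at 6.84, 1.90 and 3.61 CPM. The log2 fold change for light in that strain was -2.12 ± 0.55, and -2.69 without the library that stood apart. In the wild type it was at 16.9, 10.9 and 3.23 CPM in the dark and at 7.73, 10.4 and 8.89 CPM in light. The lit wild-type libraries lay inside the range of the dark ones. Against the dark wild type, the dark ∆*wc-1*-labelled libraries had a log2 fold change of 0.78 ± 0.53, without overlap, and of 1.33 without dark wild-type library 1. In ∆*ve-1* it was at 6.92, 1.98 and 5.34 CPM in the dark and at 3.67, 2.91 and 4.43 CPM in light. All lit ∆*ve-1* libraries were below the lit wild type (log2 fold change -1.29 ± 0.54), whereas the dark ones overlapped the dark wild type. In the ∆*ve-1* ∆*wc-1*-labelled libraries it was at 3.96, 2.54 and 2.60 CPM in the dark and at 1.85, 1.59 and 1.98 CPM in light. The dark ones overlapped the dark wild type (log2 fold change -1.77 ± 0.55, and -1.22 without dark wild-type library 1). The lit double mutant libraries were the lowest condition, below the dark ones of the same label (log2 fold change -0.75 ± 0.54), below lit ∆*ve-1* (-1.02 ± 0.54) and below the lit wild type (-2.31 ± 0.56), with no overlap in any of the comparisons.

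In the order of the *pho-4* means, the dark ∆*wc-1*-labelled libraries (17.8 ± 0.622 CPM, SD, n = 3) stood above the next condition, the wild type in the dark (10.3 ± 6.84), by more than the SD of either and without overlap. The wild type in light stood above ∆*ve-1* in the dark (4.75 ± 2.52) in the same way, and the dark double mutant libraries (3.03 ± 0.806) above the lit ones (1.81 ± 0.198). Neighbours among the 4 conditions from 3.03 to 4.75 CPM overlapped and were closer than their SD.

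The proton-coupled permease gene *pho-5* had a similar extreme and was otherwise even. It was at 27.3, 33.3 and 42.9 CPM in the dark ∆*wc-1*-labelled libraries and at 11.3, 2.95 and 6.90 CPM in the lit ones. The groups did not overlap, with a log2 fold change of -2.30 ± 0.41 for light, and of -2.81 without the library that stood apart. In the wild type it was at 14.7, 14.2 and 9.39 CPM in the dark and at 14.3, 8.89 and 7.75 CPM in light. In ∆*ve-1* it was at 12.1, 7.73 and 11.6 CPM in the dark and at 10.3, 9.39 and 7.69 CPM in light. In the ∆*ve-1* ∆*wc-1*-labelled libraries it was at 9.14, 11.8 and 10.6 CPM in the dark and at 11.1, 8.29 and 8.42 CPM in light. These 18 libraries lay between 7.69 and 14.7 CPM, and light and dark overlapped in each of the 3 strains. The dark ∆*wc-1*-labelled libraries (34.5 ± 7.87 CPM, SD, n = 3) were 21.8 CPM above the next condition, the wild type in the dark (12.8 ± 2.93), with a log2 fold change of 1.44 ± 0.40, and every later pair of neighbours overlapped.

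**Figure D2:**
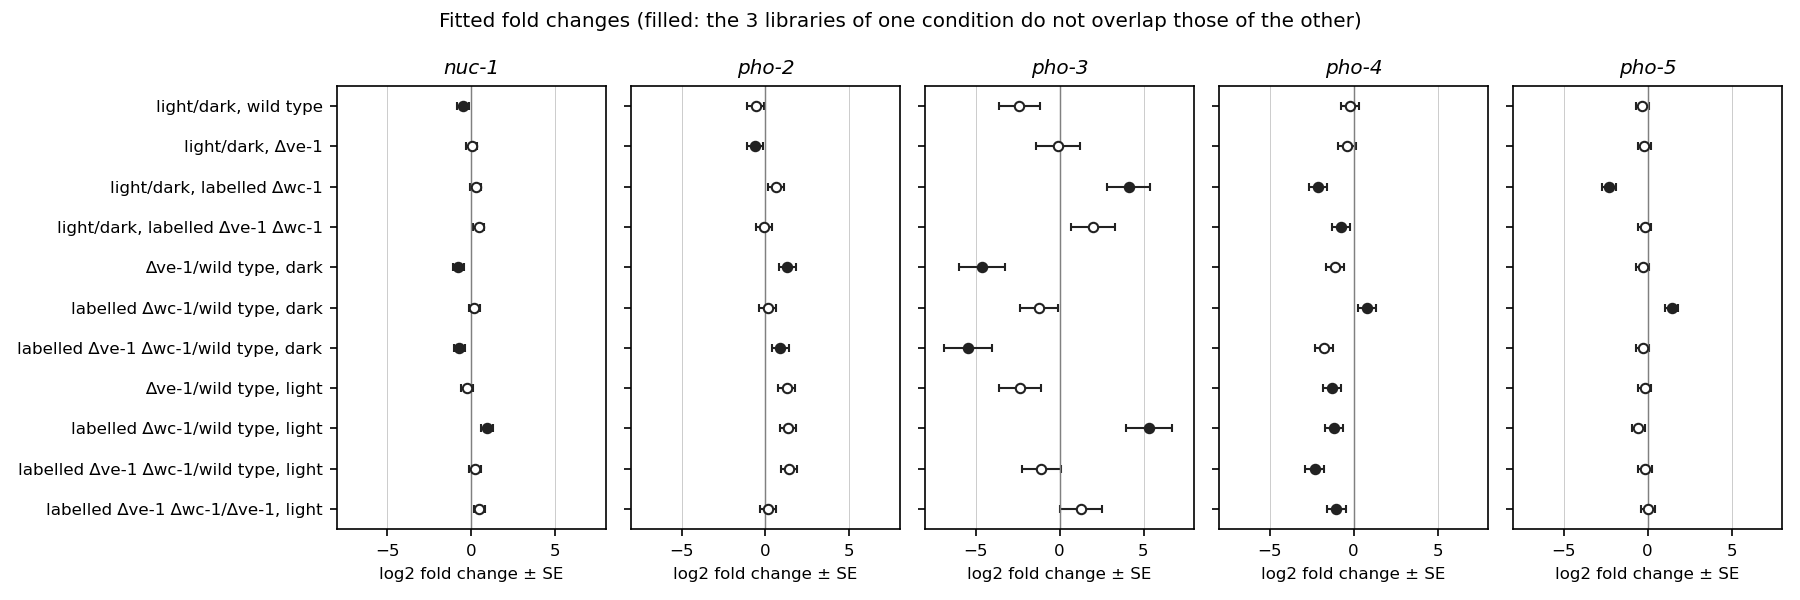
Log2 fold changes (points) of the 5 genes in 11 comparisons, the first-named condition over the second. Bars are their SE, from the fit to all 24 libraries. Filled points mark comparisons in which the 3 libraries of one condition did not overlap those of the other. *pho-3* ran from -5.43 to 5.31, and *pho-5* left the region around 0 in the dark ∆*wc-1*-labelled libraries against the wild type (1.44) and for light in that strain (-2.30).

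Genes were called differentially expressed (DEG) when edgeR's quasi-likelihood test gave an adjusted p (Benjamini-Hochberg, over the 9412 genes) below 0.05 and the log2 fold change was above 1 in size. Since the rule that named the 5 genes used these contrasts, their counts are set beside the share of all genes called and nothing is read from them. For light against dark, edgeR called 0 of the 5 in the wild type (11.4% of all genes tested), 0 in ∆*ve-1* (0.106%), 0 in the ∆*wc-1*-labelled libraries (0%) and 0 in the double mutant ones (0%). At an unadjusted p below 0.05 the counts were 0, 0, 3 and 0, beside 2822, 547, 1323 and 125 of all genes. DESeq2 and limma-voom called 0, 0, 3 and 0, the 3 being *pho-3*, *pho-4* and *pho-5* with both tools. Over all genes, DESeq2 called 244 and limma-voom 286 for light in the ∆*wc-1*-labelled libraries.

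Against the wild type in the dark, edgeR called *pho-3* in ∆*ve-1* (23% of all genes), none of the 5 in the ∆*wc-1*-labelled libraries (0.0106%) and *pho-3* and *pho-4* in the double mutant ones (11.3%). For the ∆*wc-1*-labelled libraries, 1 of the 5 had an unadjusted p below 0.05, DESeq2 called 0 and limma-voom called *pho-5*. Over all genes these counts were 162, 7 and 81. With the wild type in light as the reference, it called none in ∆*ve-1* (4.32%), *pho-3* in the ∆*wc-1*-labelled libraries (10.5%) and *pho-4* in the double mutant ones (6.53%). For ∆*ve-1* in light, 2 had an unadjusted p below 0.05, DESeq2 called 0 and limma-voom called *pho-2*. Over all genes these counts were 1918, 805 and 1371. Between the ∆*ve-1* ∆*wc-1*-labelled libraries and ∆*ve-1* in light, edgeR, DESeq2 and limma-voom called 0 (0.701% of all genes with edgeR), and 0 had an unadjusted p below 0.05. Comparisons with the same wild-type libraries share them. Every one of these calls was lost when some single library was left out. Whether that came from the library itself or from the smaller number of libraries was not tested. The call of *pho-3* in dark ∆*ve-1* was lost without ∆*ve-1* library 1 or 2 or wild-type library 3. In the dark double mutant libraries that of *pho-3* was lost without double mutant library 1 or wild-type library 3, and that of *pho-4* without each double mutant library and without wild-type library 1 or 2. In light, that of *pho-3* was lost without the library that stood apart, where *pho-4* was called in its place (log2 fold change -1.71), and without wild-type library 2 or 3, and that of *pho-4* in the double mutant libraries without library 2 or 3 of them.

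Whether the 5 genes shared a sign differed between comparisons. In the wild type all 5 had a log2 fold change below 0 for light, as did 4974 of the 9412 genes tested. The median was -0.51 against -0.07 over all genes tested. The sign of *pho-4* (-0.20) rested on dark library 1, without which its value was 0.34. In the ∆*wc-1*-labelled libraries, *nuc-1*, *pho-2* and *pho-3* were higher in light and both permease genes lower, with a median of 0.25 against -0.07 over all genes. The sign of *pho-2* and of this median rested on the library that stood apart, and both were -0.18 without it. Against the wild type in the dark, 4 of 5 were lower in ∆*ve-1* and 4 of 5 in the ∆*ve-1* ∆*wc-1*-labelled libraries. In both cases the exception was *pho-2*. Medians were -0.78 and -0.72, against -0.05 and 0.04 over all genes, of which 4873 and 4560 were lower. Measured as the log2 ratio of the highest to the lowest condition mean (with 1 CPM added to both), *pho-3* had a range of 6.26, at percentile 99.5 of the 9412 genes. *pho-4* had 2.74 (percentile 88.2), *pho-5* 2.14 (78.8), *pho-2* 1.81 (70.4) and *nuc-1* 1.16 (42.1), beside a median of 1.31 over all genes. Without the library that stood apart the highest mean of *pho-3* was 33.1 CPM and its range 4.64 (percentile 98.1).

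**Figure D3:**
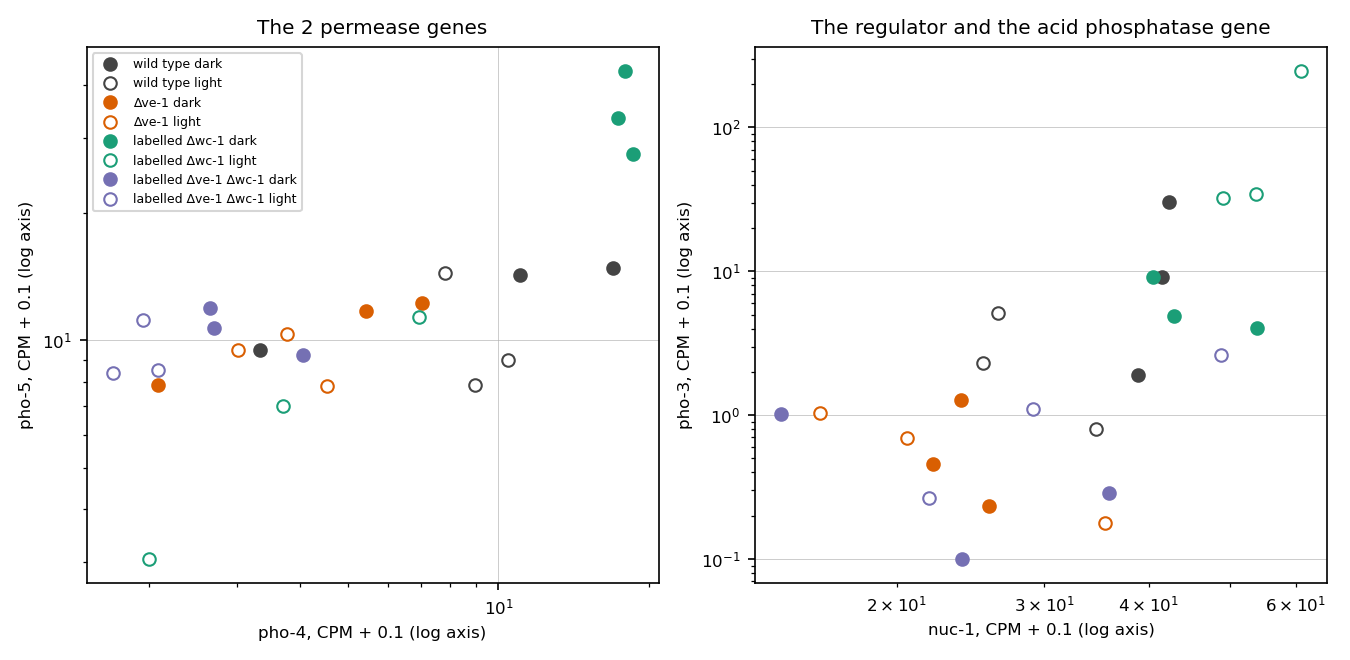
Left, *pho-5* against *pho-4*, and right, *pho-3* against *nuc-1*, in CPM with 0.1 added on log axes, 1 point per library (colour for strain, filled for dark and open for light). The 3 dark ∆*wc-1*-labelled libraries lie alone at the top right on the left, at 27.3 to 42.9 CPM of *pho-5*, and the 3 lit ones at the top right on the right, at 32.0 to 245 CPM of *pho-3*.

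Across the 24 libraries, with log2(CPM + 1) and as a description, the closest pair was *pho-4* and *pho-5* (Pearson r = 0.74, Spearman 0.64) and the next *nuc-1* and *pho-3* (r = 0.69, Spearman 0.70). Both pairs leaned on the ∆*wc-1*-labelled libraries: over the other 18 libraries r was 0.50 and 0.45. All other pairs had r between -0.38 and 0.28, and the lowest was *nuc-1* with *pho-2*. These points share the library, its depth and its condition.

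Of 7186 genes with a mean of at least 10 CPM, those with the most similar pattern by the same r were *ace-4* (NCU07659, r = 0.94) and NCU10518 (0.93) for *nuc-1*, NCU05016 (0.91) and NCU01420 (0.90) for *pho-2*, and *neg-1* (NCU04395, 0.94) and NCU08747 (0.94) for *pho-3*. The permease genes had no such close match: NCU00547 (0.76) and NCU08228 (0.70) came nearest to *pho-4*, and NCU08696 (0.60) and NCU04771 (0.54) to *pho-5*. By Spearman correlation, *ace-4* was again first for *nuc-1* and another gene was first for each of the other 4.

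The rest of the pathway was followed with 11 further genes, which were tested over all genes. Of these, *nuc-2*, *preg* and *mdk-1* were regulators. *mdk-1* (NCU07580), which encodes a cyclin-dependent kinase of the Pho85 family, was the locus used for the kinase PGOV. The others were the phosphate transporter gene *pho-7*, the SPX domain gene *pho-6* and the phosphatase genes NCU08997 (alkaline) and *pho-12*. The phytase genes *pht-1* and *pht-2*, whose products free phosphate from phytate, were also listed. *vtc-1*, for a subunit of the vacuolar polyphosphate synthase, and the exopolyphosphatase gene NCU06310 completed the list. All 11 passed the filter on low counts. This list, too, was drawn up with results of these data known.

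For light against dark in the wild type, 3 of the 11 were DEGs (11.4% of all genes were), 2 higher and 1 lower. *nuc-2* fell from 81.2, 97.3 and 82.3 CPM in the dark to 41.2, 31.0 and 44.6 CPM in light (log2 fold change -1.16 ± 0.35, adjusted p = 0.0354). *pht-1* rose from 41.7, 55.5 and 49.5 CPM to 241, 159 and 101 CPM (1.77 ± 0.38, adjusted p = 0.0052). *pht-2* rose from 30.1, 29.4 and 39.5 CPM to 111, 86.3 and 44.3 CPM (1.29 ± 0.37, adjusted p = 0.0289). None of these 3 overlapped between light and dark. The summed conidiation markers, at 84638 to 138775 CPM in light and 1007 to 3401 CPM in the dark, moved with them, and their part in the result was not tested. The other 8 had log2 fold changes between -2.59 and 1.31.

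Only the *pht-1* call held without each of the 6 libraries in turn (adjusted p = 0.00345 to 0.0385). For *nuc-2* the adjusted p was 0.0761, 0.101 and 0.0838 without dark libraries 1, 2 and 3, and 0.0948 and 0.116 without lit libraries 1 and 2. For *pht-2* it was 0.106, 0.0991 and 0.0503 without the dark libraries, in the same order, and 0.15 and 0.0691 without lit libraries 1 and 2. With the share of the 10 most abundant genes as a covariate all 3 calls were lost (adjusted p = 0.408 for *nuc-2*, 0.0959 for *pht-1* and 0.332 for *pht-2*). That share did not overlap between the lit and dark wild-type libraries, so this fit cannot tell it apart from light.

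For light in the other strains, edgeR called 0 of the 11 in ∆*ve-1* (0.106% of all genes), in the ∆*wc-1*-labelled libraries (0%) and in the double mutant ones (0%). At an unadjusted p below 0.05 there were 0, 2 and 0 of the 11, beside 547, 1323 and 125 of all genes. DESeq2 and limma-voom called 0 of the 11 in each. The difference between the light effect of a mutant and that of the wild type was tested directly. edgeR called 0 of the 11 for ∆*ve-1* (0.786% of all genes), for the ∆*wc-1*-labelled libraries (2.44%) and for the double mutant ones (3.08%). At an unadjusted p below 0.05 were 4, 1 and 3 of the 11, beside 1875, 1435 and 1778 of all genes. DESeq2 called 0, and limma-voom called 4, 4 and 0, with *nuc-2*, NCU08997 and *pht-1* in both of the first comparisons. The limma-voom counts cannot be read against the shares above, which are from edgeR. For light in the wild type, limma-voom called 2243 of all genes and edgeR 1069. With edgeR on all libraries, the light responses of *nuc-2* and of the phytase genes were therefore not shown to differ between strains, though for the double mutant ones edgeR called NCU08997 and *pht-1* without lit library 2 of them, *nuc-2* without dark library 3 of them, and *pht-1* with the library that stood apart kept out of the shared spread.

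Against the wild type in the dark, ∆*ve-1* had 3 DEGs of the 11, beside 23% of all genes. *nuc-2* was lower, at 32.1, 44.3 and 40.9 CPM (log2 fold change -1.15 ± 0.35, adjusted p = 0.0224). The alkaline phosphatase gene NCU08997 rose from 161, 176 and 172 CPM to 843, 453 and 642 CPM (1.93 ± 0.56, adjusted p = 0.0179). *vtc-1* rose from 33.7, 33.3 and 35.2 CPM to 65.3, 84.1 and 92.8 CPM (1.24 ± 0.41, adjusted p = 0.0317). The mutant and wild-type libraries did not overlap for any of the 3. *mdk-1* was at 31.5 to 52.0 CPM in the mutant and 96.7 to 107 CPM in the wild type without passing the test (-1.27 ± 0.47, adjusted p = 0.0508), although DESeq2 and limma-voom called it (0.0311 and 0.000133). NCU06310 did not pass either (-1.285, adjusted p = 0.0523), although DESeq2 and limma-voom called it lower (0.0246 and 0.00358). edgeR on only the libraries compared called both *mdk-1* (0.00325) and NCU06310 (0.0351). Conidiation markers were higher here too, at 17815 to 36089 CPM summed against 1007 to 3401 CPM, and their part was not tested.

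The *nuc-2* call was lost without ∆*ve-1* library 1 (adjusted p = 0.1) and without wild-type library 2 or 3 (0.0669 and 0.0501). That of NCU08997 was lost without ∆*ve-1* library 1 (0.0731) and without each wild-type library (0.0613, 0.0525 and 0.0552 in order). That of *vtc-1* was lost without each of the ∆*ve-1* libraries (0.0514, 0.0723 and 0.0836) and each wild-type one (0.0854, 0.0842 and 0.0946). With the share of the 10 most abundant genes as a covariate, *vtc-1* stayed past the threshold, and *nuc-2* (adjusted p = 0.196) and NCU08997 (0.191) did not. The share did not overlap between these strains in the dark either, so this fit cannot tell it apart from the strain.

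The ∆*wc-1*-labelled libraries had 0 DEGs of the 11 in the dark (0.0106% of all genes), with 0 at an unadjusted p below 0.05 and 0 with DESeq2 and limma-voom. The dark ∆*ve-1* ∆*wc-1*-labelled libraries had 1 (11.3% of all genes), *vtc-1*, which rose to 113, 85.5 and 50.5 CPM (log2 fold change 1.28 ± 0.41, adjusted p = 0.0449). NCU08997 was at 277, 880 and 274 CPM there, above all dark wild-type libraries, and did not pass (1.49 ± 0.56, adjusted p = 0.0833), although DESeq2 called it (0.0332). Without library 2 of them, at 880 CPM, its log2 fold change was 0.70. The *vtc-1* call was lost without double mutant library 1 or 2 (adjusted p = 0.19 and 0.118), without both libraries of the 0.992 pair (0.14), without each wild-type library (0.118, 0.116 and 0.144 in order) and with edgeR on only the libraries compared (0.0531).

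**Figure D4:**
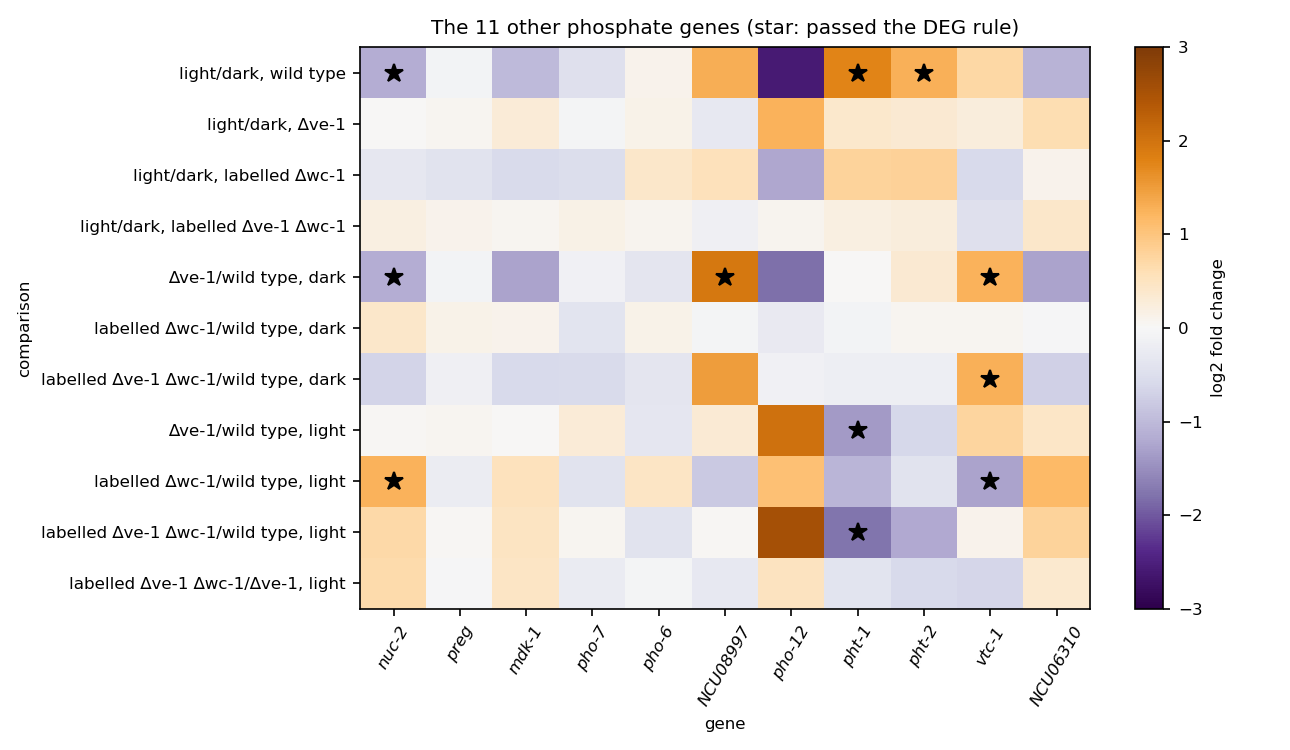
Log2 fold changes of the 11 other phosphate genes (columns) in 11 comparisons (rows), orange for higher and purple for lower in the first-named condition; stars mark genes that passed edgeR's test at an adjusted p below 0.05 with an absolute log2 fold change above 1. *preg* has no star and a narrow range of colour, and *nuc-2*, *pht-1* and *vtc-1* have 3 stars each.

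In light and against the wild type, 1 of the 11 was a DEG in ∆*ve-1* (4.32% of all genes), 2 in the ∆*wc-1*-labelled libraries (10.5%) and 1 in the double mutant ones (6.53%). *pht-1* was lower in ∆*ve-1*, at 52.0, 68.0 and 72.7 CPM against 241, 159 and 101 CPM (log2 fold change -1.38 ± 0.38, adjusted p = 0.041), and in the ∆*ve-1* ∆*wc-1*-labelled libraries, at 49.1, 68.8 and 30.4 CPM (-1.76 ± 0.38, adjusted p = 0.0088). In the ∆*wc-1*-labelled libraries, *nuc-2* was higher, at 81.7, 97.3 and 98.4 CPM against 41.2, 31.0 and 44.6 CPM (1.25 ± 0.35, adjusted p = 0.0251), and *vtc-1* was lower, at 11.1, 28.2 and 30.2 CPM against 38.2, 75.8 and 54.6 CPM (-1.28 ± 0.41, adjusted p = 0.048). *pht-1* was at 131, 51.4 and 55.5 CPM in these libraries and did not pass (-1.08 ± 0.37, adjusted p = 0.0672), and it passed without the library that stood apart, which held the 131 CPM (-1.65, adjusted p = 0.00637). The summed conidiation markers were lower in all 3 mutants in light, at 38357 to 80853 CPM in ∆*ve-1*, 648 to 3775 in the ∆*wc-1*-labelled and 8564 to 18719 in the double mutant libraries against 84638 to 138775 in the wild type, and their part in these results was not tested. Between the ∆*ve-1* ∆*wc-1*-labelled libraries and ∆*ve-1* in light, edgeR called 0 of the 11 (0.701% of all genes), with 0 at an unadjusted p below 0.05 and 0 with DESeq2 and limma-voom.

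The *vtc-1* call in light was lost without the library that stood apart (log2 fold change -0.94, adjusted p = 0.113), without ∆*wc-1*-labelled library 2 (0.071), without wild-type library 2 or 3 (0.171 and 0.0783) and with no filter on low counts (0.0515), and limma-voom gave it a log2 fold change of -0.92. That of *nuc-2* was lost without ∆*wc-1*-labelled library 2 or 3 (0.0627 and 0.0571), without wild-type library 1 or 2 (0.0626 and 0.0964) and with the covariate (0.0622), and it held without the library that stood apart. The *pht-1* call in ∆*ve-1* was lost without each ∆*ve-1* library (0.0963, 0.142 and 0.106 in order), without wild-type library 1 or 2 (0.245 and 0.0527) and with the replicate number as a block (0.0617). In the ∆*ve-1* ∆*wc-1*-labelled libraries it was lost without library 3 of them (0.0565), without wild-type library 1 (0.0682) and without both libraries of the 0.992 pair (0.0664). With edgeR on only the libraries compared all 4 calls were lost (adjusted p = 0.165 for *nuc-2*, 0.279 for *vtc-1*, 0.104 and 0.0869 for *pht-1*).

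The regulator gene *preg* was at 34.8 to 61.7 CPM in 23 libraries and at 10.2 CPM in the library that stood apart, and the log2 ratio of its highest to its lowest condition mean, 0.40, was at percentile 2.69 of all genes. It passed edgeR's test only with the share of the 10 most abundant genes as a covariate, in the lit ∆*wc-1*-labelled libraries against the wild type (log2 fold change -1.05, adjusted p = 0.0481). *nuc-2* had r = 0.89 with *nuc-1* over the 24 libraries, as a description, and *mdk-1* had r = 0.65 with *nuc-1*. *vtc-1* had a negative r with both *nuc-1* (-0.86) and *pho-3* (-0.82). *pho-6*, the SPX gene, had r = 0.81 with *pho-3* and was highest, at 309 CPM, in the library that stood apart. *pho-12* was at 0 CPM in 2 libraries and at most at 9.11 CPM, and *pho-7* was at 1.47 to 17.5 CPM. Neither was called by edgeR over the 24 libraries in any comparison, while DESeq2 (adjusted p = 0.0342) and limma-voom (0.026) called *pho-12* lower in light in the wild type. edgeR did so too with the library that stood apart kept out of the shared spread (0.0334). In dark ∆*ve-1*, limma-voom (0.0157) and edgeR on only the libraries compared (0.00778) called *pho-12* lower than in the wild type. In the lit double mutant libraries, DESeq2 (0.0472) and edgeR with that shared spread (0.0474) called it higher.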

How the data were processed

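The values are raw counts per gene. Per the methods and labels, the authors made strand-specific poly(A) libraries, used fastp to clean reads and STAR to map these to assembly NC12, counted them per gene on the first strand with featureCounts, and deposited the counts without normalization. All 24 columns were used, and all 10561 genes matched a locus tag of the reference annotation.

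Counts were scaled with TMM and filtered over the 8 conditions with edgeR 4.0.16 in R 4.3.3 (9412 genes). A quasi-likelihood fit had 1 mean per condition over all 24 libraries (16 residual degrees of freedom), with Benjamini-Hochberg adjustment. DEGs had to pass 0.05 in adjusted p and 1 in the size of the log2 fold change. CPM is on the TMM scale. The 5 members and all gene lists were chosen with earlier results of these data known. The rule for named genes gives the members, the listed phosphate genes and, per member, the 2 genes of highest likeness. The reference annotation used here holds no product names, so the list was not extended by product.

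Alternatives were DESeq2 1.42.0, limma-voom (limma 3.58.1) with quality weights, RLE scaling, the replicate number as a block, a fit of the 6 compared libraries alone in edgeR, omission of the filter (10197 genes), and leaving out each library. Further ones, 4 in number, were added after seeing the data, namely the share of the 10 most abundant genes as a covariate, the shared spread without the library that stood apart, leaving out the 2 most highly correlated ∆*ve-1* ∆*wc-1*-labelled libraries, and the members' ranges and median without the library that stood apart. Replicate numbers of the labels were checked for pairing: same-numbered libraries deviated together, with every r over 0.1, in 2 of 11 comparisons, the ∆*wc-1*-labelled libraries against the wild type under dark conditions (0.185 to 0.345) and ∆*ve-1* ∆*wc-1*-labelled libraries against the wild type in light (0.11 to 0.496), where the block changed no call.

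An excess of even counts (59.8 to 93.3% even among gene counts from above 100 to 1000, where 50% is even odds) was seen in every library, so the counts may be fewer independent fragments than they appear. The limit of 3 counts for a count of 0 covers counting error only. Each test was tested on simulated data with 200 changed genes. Plots used Python 3.11.15 and matplotlib 3.10.9.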

Additional observations from a re-analysis of the deposited data

Results flagged for a closer look

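For 2 members, every lit library labelled ∆*wc-1* was above its dark mean and every lit wild-type library below it, on the scale of log2(CPM + 1). The mean difference of the light shift between the strains was 0.760 for *nuc-1* and 4.91 for *pho-3*, ∆*wc-1*-labelled libraries minus the wild type. No test of these differences is given, because the same values chose the genes. How many of all genes had this pattern was not counted, so nothing is read from the 2. For *pho-3* the value includes the library that stood apart, in which it was at 245 CPM against 34.2 and 32.0 CPM in the other lit libraries of that label. The light shift of *pho-3* was 5.22 in that library and 2.42 and 2.32 in the others.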

How the results depend on the processing

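No fold change of a member or listed gene that had been called turned its sign, and RLE normalization moved no count. Counts of listed genes called are given where they moved by more than 1.5 times; DESeq2, edgeR on only the libraries compared and the shared spread also gave 4 for light in the wild type, and DESeq2 and limma-voom gave 3 for the ∆*wc-1*-labelled libraries in light. With the covariate that last count stayed at 2, with *preg* in place of *nuc-2*. Light in the wild type (3): 6 with limma-voom, 0 with the composition covariate (the share of the 10 most abundant genes), 1 to 3 with single libraries left out. ∆*ve-1* in the dark (3): 5 with DESeq2, 6 with edgeR on only the libraries compared, 6 with limma-voom, 1 with the covariate, 5 with the spread shared without the library that stood apart, 0 to 3 left out. Double mutant in the dark (1): 2 with DESeq2, 0 on only the libraries compared, 0 without both double mutant libraries of the pair with a Spearman correlation of 0.992, 0 to 3 left out. ∆*ve-1* in light (1): 0 on only the libraries compared, 2 with limma-voom, 0 with the replicate block, 0 to 1 left out. ∆*wc-1*-labelled libraries in light (2): 0 on only the libraries compared, 1 with no filter, 0 to 3 left out. Double mutant in light (1): 3 with DESeq2, 0 on only the libraries compared, 2 with limma-voom, 3 with the spread shared without the library that stood apart, 0 without both libraries of the 0.992 pair, 0 to 2 left out. Difference between light effects (0): 8 with limma-voom, 0 to 2 left out. All genes called moved as well. limma-voom called 2243 for light in the wild type (1069 in the main fit). It called 3485 in dark ∆*ve-1* (2166), 1371 in lit ∆*ve-1* (407) and 2281 in the lit ∆*wc-1*-labelled libraries (992). DESeq2 called 1630 in the dark double mutant (1068) and 1082 in the lit one (615). edgeR on only the libraries compared called 180, 138 and 206 in lit ∆*ve-1*, ∆*wc-1*-labelled and double mutant libraries.

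Members past the DEG rule, in the same way. Light in the wild type (0): 2 with the covariate (*pho-2* and *pho-3*). Light in the ∆*wc-1*-labelled libraries (0): 3 with DESeq2, 3 with limma-voom, 0 to 1 left out. ∆*ve-1* in the dark (1): 2 with DESeq2, 2 on only the libraries compared, 3 with limma-voom, 2 with the shared spread without the library that stood apart, 0 to 1 left out. ∆*wc-1*-labelled libraries in the dark (0): 1 with limma-voom. Double mutant in the dark (2): 0 on only the libraries compared, 0 without both libraries of the 0.992 pair, 0 to 2 left out. ∆*ve-1* in light (0): 1 with limma-voom, 1 with the covariate, 0 to 1 left out. ∆*wc-1*-labelled libraries in light (1): 2 with DESeq2, 0 on only the libraries compared, 2 with limma-voom, 2 with the covariate, 0 to 2 left out. Double mutant in light (1): 2 with DESeq2, 0 on only the libraries compared, 0 with limma-voom, 2 with the covariate, 2 with the shared spread without the library that stood apart, 0 without both libraries of the 0.992 pair, 0 to 2 left out. All genes called moved here too. For light in the ∆*wc-1*-labelled libraries (0) they were 244 with DESeq2 and 286 with limma-voom. For these libraries against the dark wild type (1) they were 81 with limma-voom. With the covariate they were 1337 in lit ∆*ve-1*, 2087 in the lit ∆*wc-1*-labelled and 1178 in the lit double mutant libraries. Without the 0.992 pair they were 601 in the dark and 241 in the lit double mutant libraries. The cause of these shifts was not tested, beyond the smaller number of libraries where some were left out. The replicate block changed no other call. Counts of *pho-3* were 0 to 30 in the dark ∆*ve-1* and double mutant libraries, which limits the precision of its level there.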
